A study of Triticum aestivum with 14 samples.

Results

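Regions of wheat chromatin that were called accessible in leaf, axillary bud, shoot apex, vernalized axillary bud and vernalized shoot apex, but not in vernalized leaf, are described here. Accessible chromatin regions (ACRs) of 6 lists were merged into 289328 consensus regions wherever they overlapped by at least 1 bp. The members were selected on the presence of an ACR in 5 lists and its absence from the list of vernalized leaf, and 17916 regions (6.19% of the consensus regions) met this rule. Because presence and absence chose the members, their number is a description and not a test. Absence means that the vernalized leaf list holds no ACR at that place. It does not mean that no Tn5 insertion was found there.

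All material came from the winter wheat cultivar AK58. The 3 unvernalized tissues, which were leaf, axillary bud and shoot apex, were from plants grown for 2 weeks with days of 16 h at 22°C and nights of 8 h at 19°C. The vernalized tissues came from plants kept for 1 month in the cold at 4°C and then grown in the greenhouse for 1 day, so plant age and cold exposure differ together and cannot be told apart. The series described 14 samples in 7 groups of 2, input among them, and the lists used here number 6, with 1 for each combination of tissue and condition. The list of vernalized leaf was the shortest, with 126351 ACRs, and that of leaf had 128914. The others ran from 132696 ACRs for shoot apex to 175599 for axillary bud. No group had a replicate list, so differences could not be set against replicate error and no p-value is given. Percentages are given with 95% Wilson intervals, which cover counting error only and treat neighbouring regions as independent, which they are not. No read counts accompany the positions, and the library statistics that the paper supplies were not used. The depth behind an ACR was therefore not assessed.

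In ATAC-seq the transposase Tn5 inserts adapters where DNA is free of nucleosomes, and stretches with many insertions are called as ACRs, which often hold promoters and enhancers. Bread wheat is an allohexaploid with A, B and D sub-genomes, and its genes are denser towards the chromosome ends than around the centromeres. Vernalization is the long cold exposure that makes a winter cultivar competent to flower. In leaves it is known for the activation of VRN1, a MADS-box gene, and of the mobile flowering signal VRN3 (FT), which travels to the apex. Each tissue is a mixture of cell types, so fewer nuclei with an open site and weaker opening in each nucleus cannot be told apart.

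Vernalized leaf was the list most often missing alone. Of the 54074 regions called in the other 5 lists, 33.1% (95% interval 32.7 to 33.5) had no ACR in vernalized leaf. The same share was 13.1% for shoot apex (5444 of 41602 regions), 7.73% for leaf (3031 of 39189) and 4.75% for vernalized shoot apex (1802 of 37960). It was lowest for the bud lists, at 1.26% for axillary bud (460 of 36618) and 0.468% for vernalized axillary bud (170 of 36328). The members were thus 5.91 times as many as the regions missing from leaf alone, and 62.2% of the 28823 regions called in exactly 5 lists. Shoot apex was the list with the next most single absences, and the members were 3.29 times as many. After each list was shortened to its 126351 widest ACRs, 31.1% of the regions called in the other lists were absent from vernalized leaf.

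**Figure D1:**
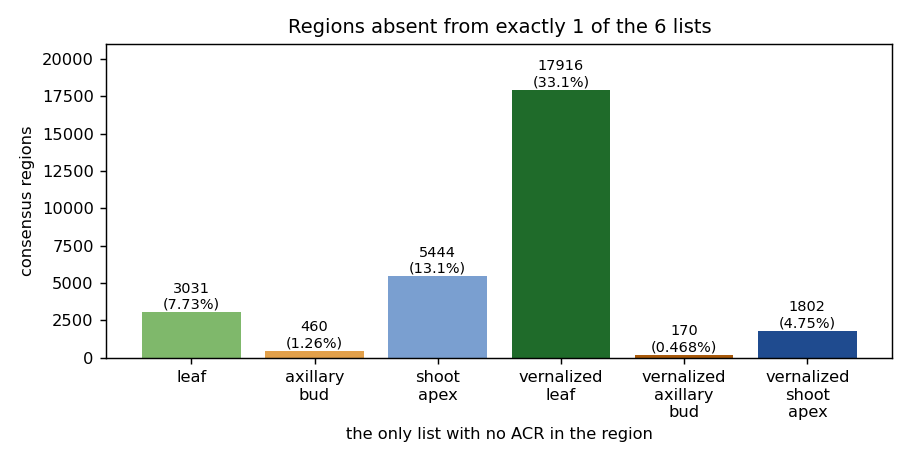
Number of consensus regions (bars) missing from 1 list alone, for each of the 6 lists, with the percentage of the regions called in the other 5 lists. The bar of vernalized leaf reaches 17916 regions, and the next highest, that of shoot apex, reaches 5444.

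The members were a minority of what the leaf list lost, where lost means only that no vernalized leaf ACR lay in the region. The study's differential ACRs were instead tested on Tn5 insertion counts. Lists also differed the other way, as 40097 of 126351 vernalized leaf ACRs (31.7%) lay in regions called in vernalized leaf alone. Of 108088 regions called in leaf, 46.2% had no ACR in vernalized leaf, and the members were 35.9% of those 49963 regions. The remaining regions lost from leaf also lacked an ACR in at least 1 list of bud or apex. The members held 21287 leaf ACRs, or 16.5% of the leaf list, and their merged length was 29.3 Mb. When a leaf ACR was no longer required, the number of regions rose to 31371. Without the requirement of an ACR in shoot apex it was 25407, and without that of vernalized shoot apex 19631. Dropping either axillary bud list changed the number little, to 18253 for the unvernalized and 18063 for the vernalized list.

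The edge of the rule involved few regions. There were 2 members that adjoined a vernalized leaf ACR without overlap, and the first of them by position lay on chromosome 2D (650468612 to 650469692). Just outside the rule, a region on 6B (527037595 to 527040303) was called in all 6 lists with an overlap of 2 bp between vernalized leaf and the other lists. Of all members, 22 (0.123%) lay less than 50 bp from a vernalized leaf ACR. Among the 36158 regions called in all 6 lists, 21 (0.0581%) overlapped the vernalized leaf ACR by less than 50 bp, and the median overlap was 678 bp.

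Members were narrower than regions called in all 6 lists. Part of this contrast is set by the rule. A vernalized leaf ACR can extend or join regions of all 6 lists, but never a member. A wider region also has more room to overlap a vernalized leaf ACR by 1 bp. Their merged width ran from 274 to 12057 bp with a median of 1350 bp (quartiles 950 and 1999 bp), whereas regions of all 6 lists had a median of 1850 bp (1282 and 2803 bp). The leaf ACRs covered a median of 450 bp in a member (310 and 718 bp) and of 889 bp in a region of all 6 lists (550 and 1439 bp). Leaf showed the largest relative difference of the 5 lists. In axillary bud the members' median was 1150 bp against 1550 bp, and in vernalized axillary bud it was 1050 bp against 1450 bp. The median in shoot apex was 637 bp against 1007 bp, and that in vernalized shoot apex 750 bp against 1112 bp. Vernalized leaf itself covered a median of 700 bp in the regions of all 6 lists.

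Within a member the leaf ACR was usually the smallest. Leaf was the narrowest of the 5 lists in 55.1% of the members, against 46.1% of the regions of all 6 lists, and shoot apex was the narrowest in 26.8% of the members. Axillary bud was the widest in 51.4% of the members and spanned the whole merged region in 22.8%, whereas leaf spanned it in 0.268%. The median share of the merged width was 37.1% for leaf, 52.0% for shoot apex and 93.5% for axillary bud, and after vernalization 61.7% for apex and 80.3% for bud. Most members held a single ACR of each list, from 79.8% of the members in shoot apex to 93.6% in axillary bud, and 84.7% in leaf.

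**Figure D2:**
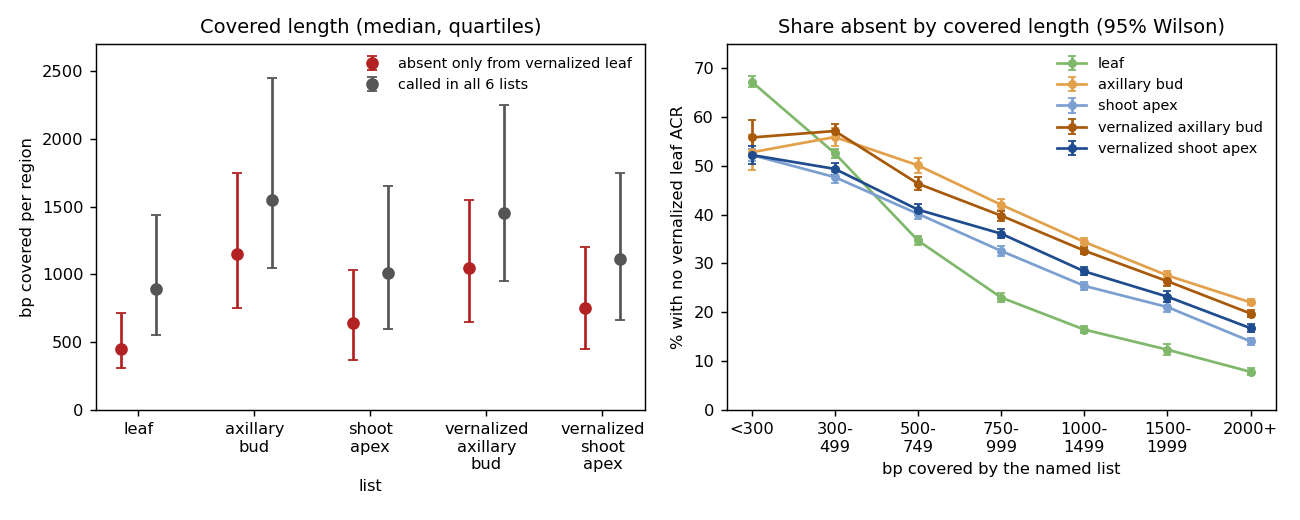
Base pairs covered per region by each list, in the members and in the regions called in all 6 lists (left, medians with quartiles), and percentage of regions without a vernalized leaf ACR by the width covered in each of the other lists (right, 95% Wilson intervals). The members' medians are lower in all 5 lists, and the leaf curve falls from 67.3% under 300 bp to 7.78% at 2000 bp or more.

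The share of regions without a vernalized leaf ACR fell steadily with the width covered in leaf. Wider regions have more room for an overlap of 1 bp, and how much of the fall this makes was not tested. It was 67.3% where leaf covered less than 300 bp, 52.6% from 300 to below 500 bp, 34.7% from 500 to below 750 bp and 23.0% from 750 to below 1000 bp. At 2000 bp or more it was 7.78%, or 426 of 5474 regions. Width in the other lists showed a weaker relation. Where those lists covered 2000 bp or more, the share was 22.0% for axillary bud, 19.7% for vernalized axillary bud, 16.7% for vernalized shoot apex and 14.0% for shoot apex. Of the 28382 regions with at least 500 bp in each of the 5 lists, 5321 were members (18.8%, 18.3 to 19.2). With at least 2000 bp in each, 225 of 3320 regions were members (6.78%, 5.97 to 7.68). Requiring single ACRs of at least 500 bp in the 5 lists left 4247 members, and applying the same minimum to all 6 lists left 9543, or 38.4% of the regions of the other 5 lists. In the latter count narrow ACRs of vernalized leaf were left out as well, which adds absences.

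The ACRs of the 5 lists mostly met at a common core. In 16182 members (90.3%) all 5 lists shared at least 1 bp, with a median shared length of 301 bp (218 and 464 bp) and a maximum of 4960 bp. In the other 1734 members the lists were joined through overlaps that no base pair had in common. Regions of all 6 lists had such a core, over the same 5 lists, in 94.5% and a median of 553 bp. A stricter condition, that each of the 5 lists cover at least 50% of the merged region, was met by 2761 members.

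Overlap between lists inside the members was measured by the Jaccard index, the shared length over the joined length. It was highest between axillary bud and vernalized axillary bud (0.728), next between vernalized axillary bud and vernalized shoot apex (0.636), and 0.544 between shoot apex and vernalized shoot apex. Leaf overlapped each of the other lists least, from 0.395 with axillary bud to 0.433 with vernalized shoot apex. All 10 pairs were lower in the members than in the regions of all 6 lists, where axillary bud and vernalized axillary bud reached 0.780 and leaf and axillary bud 0.538.

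Bud and apex kept the members in both conditions, but the length they covered moved in opposite directions. From axillary bud to vernalized axillary bud the total inside the members went from 25.7 to 22.5 Mb, and 59.1% of the members were narrower while 26.8% were wider. From shoot apex to vernalized shoot apex it went from 14.9 to 17.4 Mb, and 62.5% were wider while 36.1% were narrower. In the regions of all 6 lists the changes had the same signs with smaller sizes, -7.76% for bud and 7.13% for apex, against -12.3% and 16.5% in the members. The share of ACRs whose width was a whole number of 150 bp bins at 100 bp steps moved with the shoot apex value. In the members it was 13.0% in shoot apex and 80.4% in vernalized shoot apex, but 94.4% and 95.7% in the pair of axillary bud lists. In leaf it was 33.8%, so the lists with the lowest shares, shoot apex and leaf, were also those most often the narrowest in a member. Its part in the widths was not tested. The share was not computed for the vernalized leaf list, whose lack of an ACR defines the members.

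The widest members were broad in bud and patchy in leaf. The widest lay on 2A (92315302 to 92327358, 12057 bp), where axillary bud covered 12050 bp, vernalized axillary bud 11000 bp, vernalized shoot apex 8395 bp, shoot apex 5006 bp and leaf 3487 bp in 5 ACRs. A region on 3A (638065925 to 638077974) spanned 12050 bp, all of it covered in axillary bud and 4181 bp in leaf, and its nearest vernalized leaf ACR was 1017 bp away. On 2A (756827937 to 756838736) leaf covered 3094 of 10800 bp, while the other 4 lists covered 9750 to 10750 bp. On 6D (460864244 to 460874993) leaf covered 3843 of 10750 bp, and the nearest vernalized leaf ACR was 5774 bp away. In these 4 members leaf covered the least of the 5 lists. The fifth, on 6B (309777572 to 309787728, 10157 bp), was wide in vernalized shoot apex alone, with 10050 bp there, 250 bp in leaf and 950 to 2058 bp in the other lists.

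Members with the longest uninterrupted core were more even across lists. On 7A (34915949 to 34922784) the 5 lists shared an unbroken 4544 bp, and leaf ACRs covered 5267 bp. Axillary bud covered 6750 bp before and 6200 bp after vernalization, and shoot apex 6274 and 5300 bp. The nearest vernalized leaf ACR to it was 9101 bp away, and the nearest leaf ACR outside the region 54016 bp away. On 1B (406033848 to 406040897) the unbroken core was 4499 bp and leaf covered 4833 of 7050 bp. On 1A (375466473 to 375472338) each list held a single ACR, of 4095 bp in leaf and 5350 to 5634 bp in the other lists. The cores on 1D (300856723 to 300863272) and 5A (696923436 to 696927696) were 3767 and 3469 bp long. At these 5 places the missing vernalized leaf ACR stood beside leaf ACRs covering 3469 to 5267 bp, against a leaf median of 450 bp. These members were picked for a long core in all 5 lists, so wide leaf coverage and evenness follow from the choice.

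**Figure D3:**
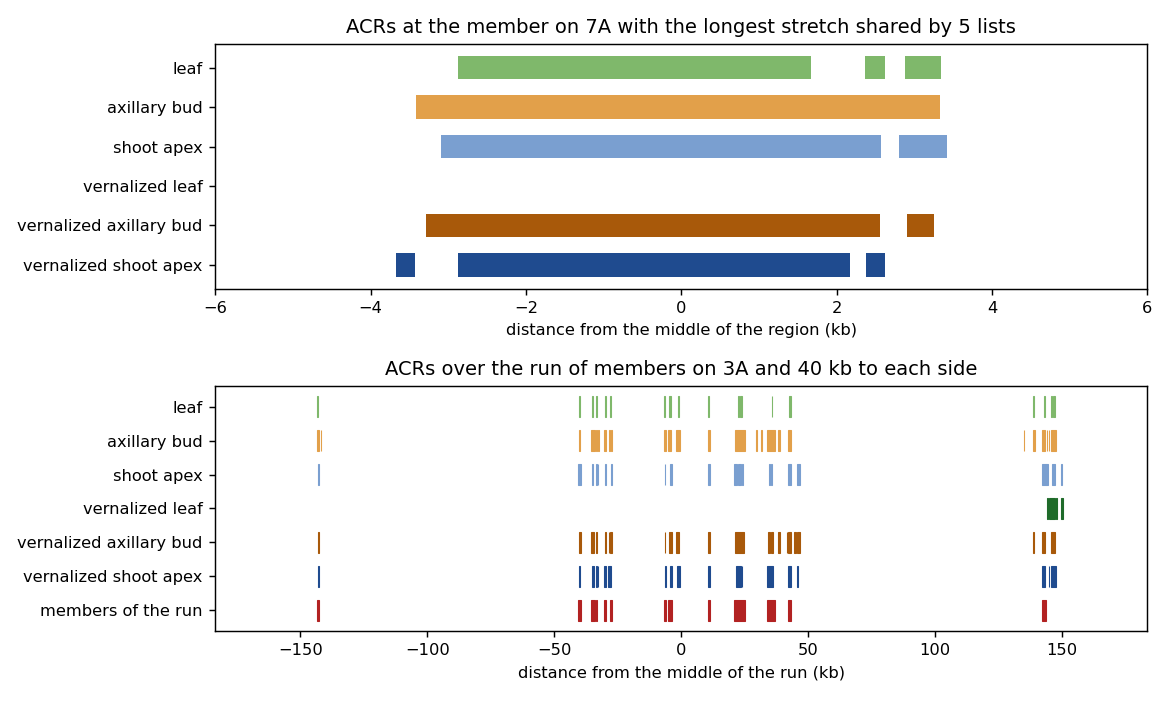
ACRs of the 6 lists around the member of chromosome 7A with the longest unbroken core (upper) and along the run of 13 members on 3A with 40 kb on either side (lower). In both stretches the row of vernalized leaf has no ACR inside a member, while the other 5 rows have one in each.

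Members mostly lay kilobases away from the remaining vernalized leaf ACRs. The median distance, edge to edge, was 9924 bp with quartiles of 3136 and 53595 bp. Within 200 bp lay 148 members (0.826%), within 1 kb 1525 (8.51%) and within 10 kb 50.2%, and 2996 members (16.7%) were more than 100 kb away. Measured the same way to the nearest ACR outside the region, the median was 5724 bp for leaf, 3837 bp for shoot apex and 3222 bp for its vernalized counterpart, and 2030 bp for axillary bud and 2324 bp for its vernalized counterpart. In regions of all 6 lists the distance to the nearest vernalized leaf ACR outside the region was 4872 bp, close to the 4416 bp for leaf. Vernalized leaf was farther than leaf in 64.1% of the members and in 54.8% of the regions of all 6 lists. Taken member by member, the median ratio of the distance to vernalized leaf over that to leaf was 1.07, less than the ratio of the medians.

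**Figure D4:**
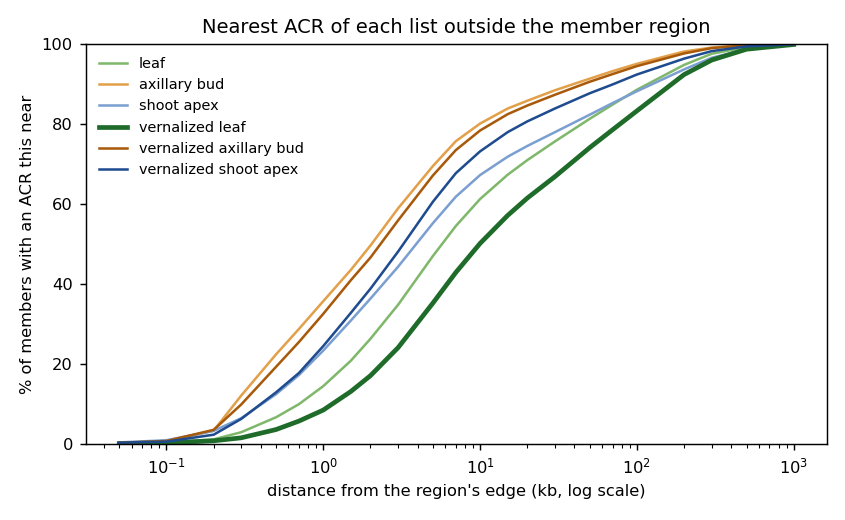
Cumulative share of members by distance to the nearest ACR outside the region, on a log axis in kb, for each of the 6 lists. The curve of vernalized leaf lies lowest and reaches 50.2% at 10 kb, where that of leaf stands at 61.3% and that of axillary bud at 80.1%.

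A long distance to the missing list was also seen for shoot apex. Regions absent only from shoot apex had a median of 11952 bp to the nearest shoot apex ACR, more than the 9924 bp of the members. Those absent only from leaf, axillary bud, vernalized axillary bud and vernalized shoot apex had medians of 4649, 4556, 4131 and 4272 bp to the list that lacked them. Across chromosomes the members' median to vernalized leaf ran from 6788 bp on 4D to 14030 bp on 2B, and it was above the median to leaf on 21 of 21 chromosomes. Leaf width hardly varied with distance, and the median leaf coverage was 449 to 452 bp in all 5 distance bands, from up to 200 bp to over 100 kb. The share on the D sub-genome was 22.4% among members over 100 kb away and 33.2 to 37.2% in the nearer bands. It was not computed for other regions or for distances to another list. The members' median distance to leaf was also lowest on D in every homoeologous group except group 3 (5182 bp on 3B, 5209 bp on 3D). Whether the low share of D is particular to vernalized leaf was therefore not tested.

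The farthest members were all on 1B, in a part of that chromosome where every list was sparse. The region at 229539405 to 229541058 was 9860810 bp from a vernalized leaf ACR, and 5845104 to 10235433 bp from the next ACR of the other lists. That at 146201741 to 146203484 was 8581344 bp from vernalized leaf, 8581235 bp from shoot apex and 484761 to 3678646 bp from the other lists. The third, at 217632410 to 217633259, was 2543299 bp from vernalized leaf, but 11906145 to 11906707 bp from each other list. Their own widths were ordinary, with 310 to 557 bp covered in leaf. The first 35% of 1B, a limit set after the values were seen, held 35 to 63 ACRs in each list (48 in vernalized leaf) and 5 members. Beyond it lay the other 582 members of the chromosome. These long distances were therefore not limited to the vernalized leaf list. How well reads of AK58 aligned to this part of the reference genome was not assessed, so few ACRs need not mean little accessible chromatin.

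The vernalized leaf list was also thinner around the members. Within 10 kb on either side, and outside the region, there were on average 0.940 vernalized leaf ACRs and 1.29 leaf ACRs, against 1.46 and 1.53 around regions of all 6 lists. The other lists differed less, with 2.10 and 2.09 ACRs for axillary bud (members first), 1.76 and 1.83 for shoot apex, 2.09 and 2.06 for vernalized bud, and 1.82 and 1.84 for vernalized apex. No vernalized leaf ACR lay within 10 kb of 49.8% of the members and of 35.5% of the regions of all 6 lists. The ratio of vernalized leaf to leaf ACRs was 0.627 within 2 kb of the members, 0.753 from 2 to 10 kb, 0.868 from 10 to 50 kb, 0.895 from 50 to 200 kb and 0.932 from 200 to 1000 kb. Around regions of all 6 lists it stayed between 0.945 and 1.01. Over the same distances from the members the vernalized to unvernalized ratio stayed between 0.973 and 1.06 for bud and between 1.01 and 1.08 for apex.

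The nearest vernalized leaf ACR belonged to a region of all 6 lists for 44.0% of the members and to a region called in vernalized leaf alone for 25.7%. The same shares were 43.5% and 24.5% for regions of all 6 lists. A region called in vernalized leaf alone lay within 10 kb of 13.6% of the members (13.1 to 14.1), against 20.4% (19.9 to 20.8) of the regions of all 6 lists. Vernalized leaf ACRs of all kinds together were also fewer around the members, on average 0.940 against 1.46 within 10 kb. Whether the lower share is particular to regions called in vernalized leaf alone was not tested.

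Position along the chromosome was not used by the rule. Members lay in the outer 10% of either chromosome end in 41.7% of cases (41.0 to 42.5) and in the interior, from 30 to 60% of the length, in 10.9% (10.5 to 11.4). Regions of all 6 lists were placed there in 37.9% and 16.5% of cases. Per Mb there were 2.66 members in the outer parts, 1.21 between and 0.463 in the interior, against 4.87, 2.35 and 1.41 regions of all 6 lists. Among the regions of the other 5 lists, 35.3% (34.7 to 36.0) lacked a vernalized leaf ACR in the outer parts, 34.0% between and 24.7% (23.8 to 25.7) in the interior. The interior was lower on 21 of 21 chromosomes.

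**Figure D5:**
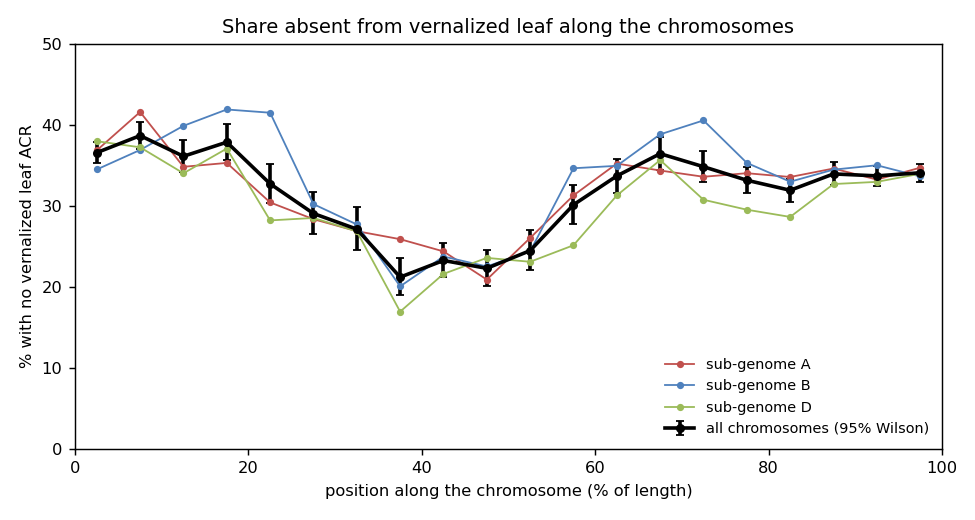
Share of regions of the other 5 lists without a vernalized leaf ACR in 20 bins along the chromosomes, with 95% Wilson intervals, for all chromosomes and by sub-genome. The lowest value over all chromosomes, 21.2%, falls at 35 to 40% of the length and the highest, 38.7%, at 5 to 10%.

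The difference between ends and interior held in most width classes. It had the same direction in 6 of 7 classes of leaf width, and the exception was 2000 bp or more, with 6.20% in the outer parts and 7.01% in the interior. The 5 other lists did not share 1 direction. The share missing from shoot apex alone was 7.49% in the outer parts and 18.1% in the interior, and that missing from vernalized shoot apex alone 4.04% and 7.23%. The share missing from leaf alone was 9.55% and 6.30%. The members' median distance to vernalized leaf was 7627 bp in the outer parts, 12406 bp between and 12253 bp in the interior. That to the nearest leaf ACR outside the region also rose inward, with 4728, 6238 and 9928 bp.

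The 3 sub-genomes held similar numbers of members. There were 6155 on A (34.4%), 5933 on B (33.1%) and 5828 on D (32.5%, 31.9 to 33.2), whereas regions of all 6 lists were on D in 34.5% (34.1 to 35.0). The share of regions without a vernalized leaf ACR was 33.5% on A (32.8 to 34.2), 34.1% on B (33.4 to 34.8) and 31.8% on D (31.2 to 32.5). D was the lowest of its homoeologous group in 7 of 7 groups. Within groups the differences were not tested, and overlap of 2 separate intervals does not show that a difference lies within counting error. The interval of D overlapped those of both homoeologues in groups 1, 2, 3, 5 and 7. In group 4, with 35.2% on 4A, 31.9% on 4B and 29.1% on 4D, it overlapped that of B only, and in group 6 that of A only. Within classes of leaf width the order was not kept throughout. From 500 to below 750 bp D was highest at 35.0%, and under 300 bp A was lowest at 65.3%. By merged length 33.6% of the members and 36.1% of the regions of all 6 lists were on D.

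The share absent also varied between chromosomes. A sub-genome pools its chromosomes, so its range cannot be the wider, and the 2 levels are not compared. It ran from 29.1% on 4D (27.3 to 31.1) to 36.9% on 6B (35.1 to 38.7). Their intervals do not overlap, but these chromosomes were picked as the lowest and the highest. The number of members ran from 587 on 1B, with its sparse part, to 1029 on 2A.

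Neighbouring regions resembled each other. When the previous region of the other 5 lists was itself a member, 38.9% of regions were members, and when it had a vernalized leaf ACR, 30.3% were. Between neighbours up to 2 kb apart these shares were 44.5% (42.3 to 46.6) and 25.2% (23.9 to 26.4), and over 200 kb apart they were 36.5% and 32.7%. The difference was thus larger at short range and smaller, but present, at long range.

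Consecutive members formed 10959 runs, of which 6938 held 1 member (38.7% of all members) and 314 held 5 or more (1811 members, 10.1%). The longest run, 14 members over 1951 kb of 7D (116413167 to 118363730), spanned 33 leaf ACRs and 10 vernalized leaf ACRs, with 36 to 58 in each of the other lists. The most compact of the 3 longest runs held 13 members in 286.9 kb of 3A (24322311 to 24609212). It spanned 16 leaf, 22 axillary bud, 18 shoot apex, 21 vernalized axillary bud and 19 vernalized shoot apex ACRs, and no vernalized leaf ACR. The other, on 7B (96276906 to 100748582), held 12 members over 4472 kb, with 37 leaf and 17 vernalized leaf ACRs. Runs were defined by consecutive members, so their low vernalized leaf counts follow from the choice.

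Members were widely spread at the scale of 1 Mb. They were found in 7769 of the 11494 windows that held a region of the other 5 lists, out of 14074 windows in all. In the 1293 windows with at least 10 regions of the other 5 lists the median share of members was 31.6% (quartiles 20 and 42.9%). Of these windows 13 held no member and 228 had a share of at least 50%. Most members were counted on 3D from 2000001 to 3000000, with 19 of 28 regions (67.9%), where leaf had 44 ACRs and vernalized leaf 25. A window of 7A (706000001 to 707000000) held 18 of 25, and the window of 3A that contains the run of 13 (24000001 to 25000000) held 16 of 22. The highest share was 91.7% on 3D from 32000001 to 33000000 (11 of 12 regions, 64.6 to 98.5), with 28 leaf and 8 vernalized leaf ACRs. It was followed by 9 of 10 on 2B (32000001 to 33000000) and 10 of 12 on 7D (572000001 to 573000000). These windows were picked for their members, so their low vernalized leaf counts follow from the choice.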

How the data were processed

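ATAC-seq was performed by the authors on leaf, axillary bud and shoot apex of unvernalized and vernalized AK58 plants. Per the study's methods and the submitters' processing notes, the authors trimmed reads with fastp 0.21.0, aligned them to IWGSC RefSeq v1.0 with Bowtie2 2.3.5.1, filtered on mapping quality with SAMtools 1.3.1, removed duplicates with Picard 2.16.0 and called peaks with MACS2 2.2.6. Peaks were divided into 150 bp bins at 100 bp steps and retained by their Tn5 insertions, which affects ACR width. The deposited lists give ACR positions only, with no count or score. Whether each was called on 1 replicate or on both together is not given in the sources used here. Mapping quality filters remove reads from near-identical homoeologous sequence first. Their effect, and that of depth, was not tested.

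The 6 lists were merged at 1 bp overlap and nothing was filtered. Positions are 1-based. Distances run from edge to edge, to ACRs wholly outside a region. Chromosome length was the end of the last ACR over all lists. Shares carry 95% Wilson intervals. The functions were tested on simulated data. Python 3.11.15, numpy 2.4.6, scipy 1.17.1 and matplotlib 3.10.9 were used.

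Members and comparisons were chosen with earlier results of these data known. The regions named are the 5 widest members, the 5 with the longest core, the 3 farthest from vernalized leaf, 1 on either side of the rule's edge, the 3 windows of 1 Mb with most members, the 3 with the highest share and the 3 longest runs. Input, genes and sequence were not analysed here, since the gene table at hand follows another assembly (IWGSC CS RefSeq v2.1).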

Additional observations from a re-analysis of the deposited data

Results flagged for a closer look

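Inside the members the covered length moved in opposite directions with vernalization in the other tissues. It changed by -12.3% from axillary bud to vernalized axillary bud and by 16.5% from shoot apex to vernalized shoot apex. In the regions of all 6 lists the changes had the same signs, -7.76% for bud and 7.13% for apex. Inside the members, ACRs with whole-bin widths made up 13.0% in shoot apex and 80.4% in vernalized shoot apex. The part of this list difference in the apex change was not tested. The difference between these tissues was not tested, because no group had a replicate list.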

How the results depend on the processing

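Of the 13 other ways of counting members, 4 moved the number beyond 1.5 times: ACRs of at least 500 bp in all 6 lists (9543) or in the 5 lists (4247), coverage of at least 50% by each list (2761) and no leaf requirement (31371). The share absent from vernalized leaf was 32.6% after merging ACRs up to 200 bp apart, 38.4% with ACRs of at least 500 bp, 31.1% at equal list length and 32.1% where the 5 lists share 1 bp. The share of members on D was 33.6% by merged length and 33.7% with ACRs of at least 500 bp. The median distance was 11026 bp from middle to middle and 10614 bp after merging. The median width was 1328 bp where the lists share 1 bp, 1378 bp after merging and 272 bp for the shared core, and 65.8% of the members lay in the outer 20% of either end. No paired analysis was possible because each group had 1 list, and for the same reason no replicate could be left out. Depth, which was not assessed, limits every statement of absence, above all for narrow ACRs.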

Other observations

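Stretches between neighbouring vernalized leaf ACRs were searched for members after the values had been seen. Of 13785 such stretches with a member, 70 held 5 or more (400 members together), and 60.5% of the members were alone in theirs. The fullest contained the run on 3A (24209380 to 24609660, 400.3 kb) with 13 members and 17 leaf ACRs. On 2B (593711843 to 596074664, 2363 kb) 9 members lay in a stretch with 15 leaf, 24 axillary bud, 16 shoot apex, 24 vernalized axillary bud and 22 vernalized shoot apex ACRs. Near the end of 3D (2338474 to 2589597, 251.1 kb) 9 members lay among 12 leaf, 28 axillary bud, 32 shoot apex, 28 vernalized axillary bud and 23 vernalized shoot apex ACRs.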
